A study of Mus musculus with 12 samples.

Results

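Glycolysis and hypoxia response genes were followed in sorted mouse B lymphoma cells that had kept or lost their B cell receptor (BCR), the antigen receptor of the cell surface. The genes are a list of 36, of which 20 encode glucose transporters, glycolytic enzymes and lactate exporters and 16 are other genes known to respond to low oxygen. A gene was represented by a probe set annotated to that gene alone, the one with the highest mean where there were several. In this way 34 genes had a value (Gpi1 and Eno1 had no such probe set and were not analysed here), and 33 of them, 18 of glycolysis and 15 of hypoxia, passed a filter on low signal together with 12961 genes in all. Car9 did not pass, with 2.79 to 2.96 log2 units on 12 arrays.

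The study set 4 groups of cells side by side, each with 1 array from each of 3 tumours, numbered 2567, 2646 and 2676. All cells were primary lymphoma cultures from l-MYC;B1-8f mice on a C57BL/6J x BALB/c background, carrying a MYC transgene and a heavy chain gene that Cre can delete, and all were sorted from mixed cultures after 4 days. The groups were BCR-negative cells cultured with CHIR99021, an inhibitor of the kinase GSK3, BCR-independent cells, which are clones (clone 8 of tumour 2567, clone 7 of tumour 2646 and clone 1 of tumour 2676) grown out of BCR-negative tumours in long culture and mixed with BCR-positive cells of their own tumour, untreated BCR-negative cells, made by transduction with TAT-Cre, and untreated BCR-positive cells. Each BCR-independent sample is thus a single clone of its tumour, and by their titles the clones too were untreated. BCR-positive cells under CHIR99021 are not analysed here. The titles of 4 arrays, those of untreated BCR-negative and BCR-positive cells of tumours 2646 and 2676, end in (2), and what this mark stands for is not given in the sources used here.

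Cells meet low oxygen mainly through hypoxia-inducible factors (HIF), pairs of an oxygen-regulated alpha subunit and ARNT. With oxygen present, prolyl hydroxylases such as Egln1 mark the alpha subunit for destruction by the VHL ubiquitin ligase, and without it the pair binds short hypoxia response elements near its target genes. Targets include the glucose transporter Slc2a1 and much of glycolysis, Pdk1, which inhibits pyruvate dehydrogenase, Bnip3, which acts in mitophagy, and the growth factor Vegfa. In MYC-driven lymphomas glycolytic genes are also targets of MYC, which binds the E-box CACGTG.

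The start regions of 33 of the 36 genes were found in RefSeq (GRCm38.p6), with none for Slc2a3, Bhlhe40 and Ndrg1 in the table used. The core of the hypoxia response element was searched as ACGTG and GCGTG on both strands, from 250 bases before to 50 bases after each transcription start. At least 1 core stood in the window of 29 of these 33 genes (87.9%), against 46.7% of 27025 genes with a window. By window, 39 of 51 (76.5%) held one, against 43.8% of 32851. ACGTG alone was found in 69.7% of the listed genes and 21.8% of all, and GCGTG alone in 66.7% and 35.2%. The E-box CACGTG, which contains ACGTG on either strand, stood in 15.2% of the listed genes and 8.09% of all. Such matches are runs of letters and not measured binding sites. The genes compared were not matched to the listed ones in base composition or expression, and both cores contain the letters CG. What part of the excess this makes was not tested. The 250 bases before the start are shown for the 5 listed genes that passed a test in these arrays. Each is written 5′ to 3′ on the gene's strand, with core letters of either strand in capitals. They come from Ankrd37 (chr8:45999851-46000100, minus strand), Bnip3 (chr7:138909507-138909756, minus strand), P4ha1 (chr10:59323046-59323295, plus strand), Slc2a1 (chr4:119108495-119108744, plus strand) and Car12 (chr9:66713436-66713685, plus strand).
Ankrd37: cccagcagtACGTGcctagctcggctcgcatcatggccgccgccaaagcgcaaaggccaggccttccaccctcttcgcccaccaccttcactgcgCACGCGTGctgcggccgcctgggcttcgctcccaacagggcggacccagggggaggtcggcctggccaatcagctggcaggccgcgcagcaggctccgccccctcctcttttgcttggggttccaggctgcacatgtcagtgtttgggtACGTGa
Bnip3: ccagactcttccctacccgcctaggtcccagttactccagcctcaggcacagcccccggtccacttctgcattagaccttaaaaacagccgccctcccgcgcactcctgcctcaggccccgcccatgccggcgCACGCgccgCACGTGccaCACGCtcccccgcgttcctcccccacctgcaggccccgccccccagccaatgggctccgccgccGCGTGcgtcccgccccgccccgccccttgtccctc
P4ha1: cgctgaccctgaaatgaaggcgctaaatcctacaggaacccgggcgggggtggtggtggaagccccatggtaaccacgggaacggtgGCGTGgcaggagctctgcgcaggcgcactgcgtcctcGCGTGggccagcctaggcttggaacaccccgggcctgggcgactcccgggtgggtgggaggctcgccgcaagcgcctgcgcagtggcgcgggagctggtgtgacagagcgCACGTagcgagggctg
Slc2a1: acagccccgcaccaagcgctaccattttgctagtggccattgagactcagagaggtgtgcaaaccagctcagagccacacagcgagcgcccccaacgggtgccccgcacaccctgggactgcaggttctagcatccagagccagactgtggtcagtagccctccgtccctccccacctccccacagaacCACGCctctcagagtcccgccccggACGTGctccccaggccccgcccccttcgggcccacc
Car12: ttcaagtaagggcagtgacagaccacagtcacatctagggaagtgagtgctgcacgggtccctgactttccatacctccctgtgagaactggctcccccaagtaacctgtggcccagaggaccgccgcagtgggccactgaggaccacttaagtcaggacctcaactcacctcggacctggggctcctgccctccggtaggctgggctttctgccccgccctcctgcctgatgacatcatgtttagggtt
The stretch of Ankrd37 held 4 core matches and that of Bnip3 5, of which 2 were the strands of 1 E-box. P4ha1 held 3 and Slc2a1 2. Car12, the gene called under treatment, held 0.

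**Figure D1:**
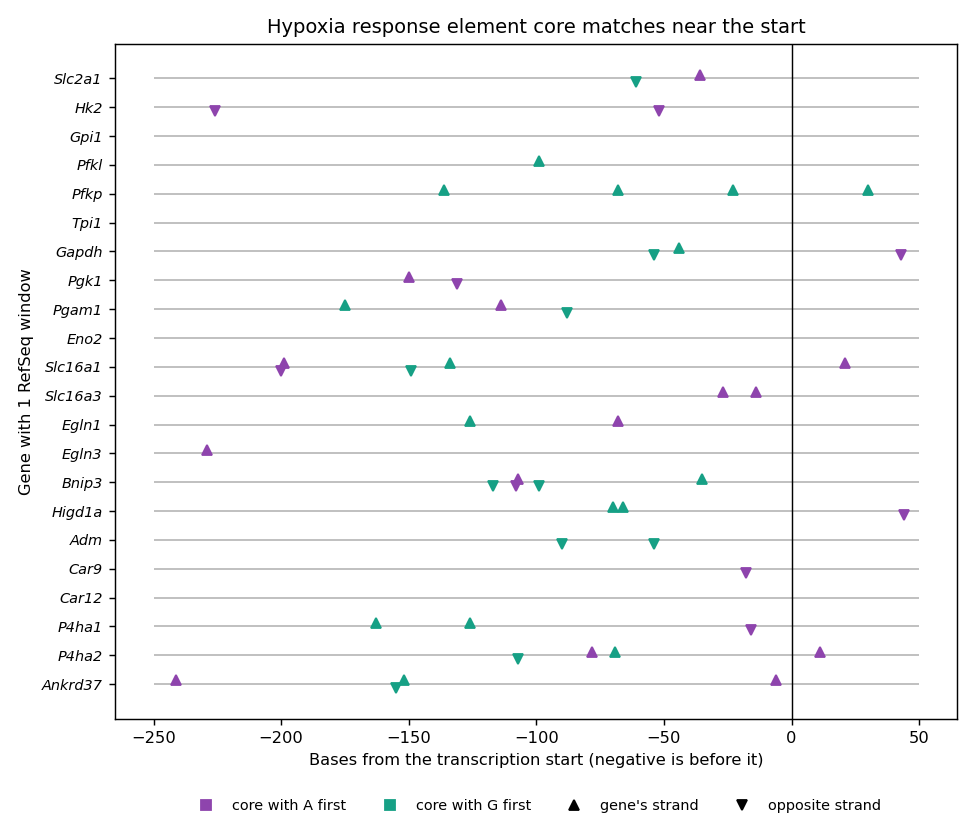
Positions of hypoxia response element cores from 250 bases before to 50 bases after the transcription start, for listed genes with a single RefSeq window. Triangles give the strand and colours the first letter of the core. Bnip3 held 5 matches and Ankrd37 4, and Car12 held 0.

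Values are deposited log2 signals, with array medians between 3.32 and 3.44 and 75th percentiles between 5.23 and 5.46. As a check of the sort, the variable segment of the deleted heavy chain had 6.97, 5.85 and 6.50 in BCR-negative cells, against 9.45, 9.45 and 9.97 in BCR-positive cells (log2 difference -3.18, SE 0.31, limma adjusted p = 0.0241, and 0.0587 without the tumour block). Without 1 of the tumours this gene was no longer called (log2 difference -3.54 to -2.97, adjusted p = 0.197 to 0.999). BCR-independent cells had 4.20, 4.21 and 3.72 for it, below BCR-negative cells in each tumour (log2 difference -2.40). BCR-negative cells thus kept some signal of this segment, and its source was not tested. Of 7 measured B cell markers 5 were above the array median on all 12 arrays, among them Cd79a (9.48 to 10.75) and Pax5 (7.88 to 8.72). Blk ran from 3.28 to 7.01, with means of 5.39 in BCR-positive and 4.36 in BCR-negative cells. Its means were 3.59 in BCR-independent and 3.79 in CHIR99021-treated cells. Ms4a1, the CD20 gene, stayed between 2.55 and 3.19, below the array medians, as did 5 of 6 T cell markers, among them Cd3e (2.84 to 3.24), while Cd8a lay between 3.44 and 3.83. Of 6 myeloid markers 1, Itgam (4.08 to 5.97), was above the array median on all 12 arrays, while Lyz2 (2.51 to 3.21), Cd14 and Adgre1 were above it on 0. Of 6 stromal and endothelial markers 3 were above it on all arrays, Pecam1 at 4.84 to 7.40, Col1a1 at 3.99 to 4.38 and Col1a2 at 3.70 to 4.24, whereas the endothelial Cdh5 lay between 3.35 and 4.00. In a mixture of cells, fewer cells expressing a gene and less RNA per cell cannot be told apart.

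Among the listed genes the 4 arrays with the title mark stood apart from the other 8. Ankrd37, an ankyrin repeat protein induced by HIF, had 6.17, 5.17 and 5.74 in CHIR99021-treated cells, 6.77, 4.91 and 5.45 in BCR-independent cells, 5.88, 7.25 and 8.09 in BCR-negative cells and 5.97, 7.78 and 7.92 in BCR-positive cells, for tumours 2567, 2646 and 2676 in that order throughout. Bnip3, the mitophagy receptor, had 7.93, 7.68 and 8.18 in CHIR99021-treated cells, 8.51, 8.42 and 8.39 in BCR-independent cells, 7.58, 9.55 and 9.51 in BCR-negative cells and 7.26, 9.20 and 9.54 in BCR-positive cells. In both genes the 4 marked arrays stood above the other 8, and the unmarked BCR-negative and BCR-positive arrays of tumour 2567 lay among the treated and BCR-independent ones or below them. Slc2a1, the glucose transporter GLUT1, had 8.47, 7.75 and 8.15 in CHIR99021-treated cells, 7.86, 7.39 and 7.93 in BCR-independent cells, 7.56, 8.74 and 8.97 in BCR-negative cells and 7.48, 8.64 and 8.96 in BCR-positive cells. P4ha1, a collagen prolyl hydroxylase subunit, had 7.13, 7.00 and 6.82 in CHIR99021-treated cells, 7.72, 7.10 and 6.65 in BCR-independent cells, 6.57, 8.03 and 7.72 in BCR-negative cells and 6.37, 7.67 and 7.59 in BCR-positive cells. Slc2a1 again separated the 4 marked arrays from all others, whereas the marked range of P4ha1, 7.59 to 8.03, overlapped the unmarked one, 6.37 to 7.72, through BCR-independent cells of tumour 2567.

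The 4 marked arrays lay above all 8 unmarked arrays in 9 of 33 listed genes, where 1.96% of all genes did, and below them in 0, where 1.54% of all genes did. They were Slc2a1, Tpi1 (triosephosphate isomerase), Egln1, Bnip3, Higd1a (a mitochondrial protein of the respiratory chain), Adm (the peptide hormone adrenomedullin), Kdm3a (a histone H3 lysine 9 demethylase), Ndrg1 and Ankrd37. In Kdm3a the marked arrays spanned 7.86 to 8.29 and the unmarked ones 6.09 to 6.81, and in Adm 4.45 to 5.04 and 3.58 to 3.90. For Tpi1 the ranges were 10.11 to 10.21 and 9.64 to 9.90. Of these 9, 7 were hypoxia genes and 2 glycolysis genes.

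**Figure D2:**
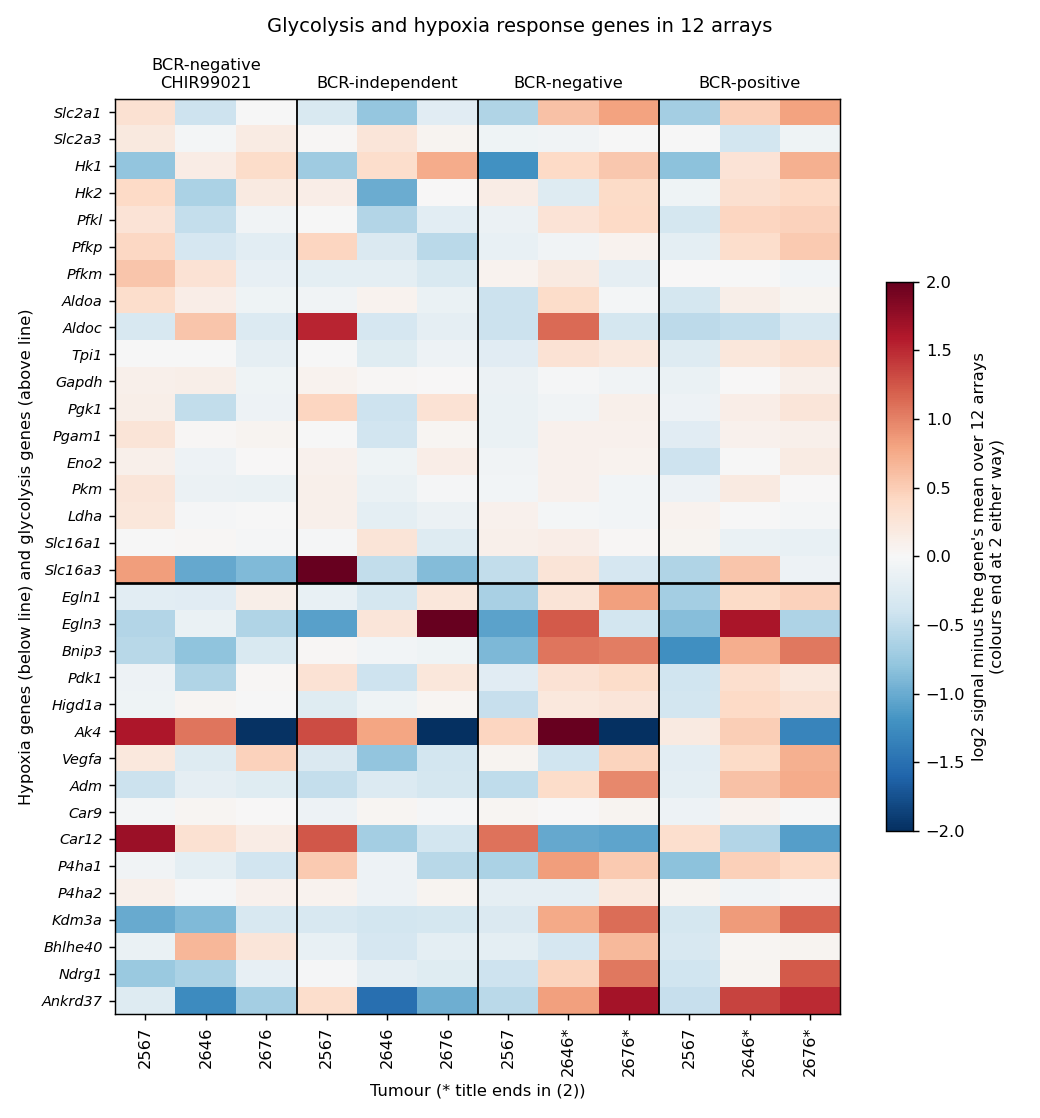
Log2 signal of 34 genes on 12 arrays, as the difference from each gene's mean, with glycolysis genes above and hypoxia genes below the line. Columns are grouped as CHIR99021-treated, BCR-independent, BCR-negative and BCR-positive cells, with tumours in order, and an asterisk marks a title ending in (2). The 4 marked columns are red in most hypoxia genes, and Car12 runs the other way.

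The title mark was fitted beside tumour and group. Its own coefficient was tested after the data were seen, and limma called 4 of the 33 listed genes, all higher with the mark. Of all 12961 genes 7, or 0.054%, were called, all higher. The coefficient was 2.99 for Ankrd37 (SE 0.28, adjusted p = 0.00857), 2.08 for Bnip3 (SE 0.18, adjusted p = 0.00616), 1.82 for P4ha1 (SE 0.20, adjusted p = 0.0241) and 1.67 for Slc2a1 (SE 0.15, adjusted p = 0.00616). The other 3 called genes, named after their values were seen, were Pgm1, which encodes the phosphoglucomutase between glycogen and glycolysis (1.73, SE 0.14), Abhd18 (2.16, SE 0.18) and Cd244a (1.05, SE 0.12). Coefficients were positive in 30 of 33 listed genes, against 57.2% of all genes, with medians of 0.90 over the hypoxia genes, 0.54 over the glycolysis genes and 0.041 over all genes. The negative ones were those of Slc16a1 (-0.12), a lactate transporter, Slc2a3 (-0.09), the transporter GLUT3, and Car12 (-0.03). The largest of the 33 was that of Slc16a3 (3.48, SE 0.56), which was not called. Its marked arrays (5.02 to 5.91) lay inside the unmarked range (4.33 to 8.56), whose top was BCR-independent cells of tumour 2567. A positive coefficient thus does not require high marked arrays. Without tumour 2646 the coefficients of Ankrd37, Bnip3, P4ha1 and Slc2a1 were 2.95, 2.04, 1.88 and 1.57. Without tumour 2676 they were 3.02, 2.12, 1.75 and 1.76. In either case limma called 0 listed genes (adjusted p = 0.105 and 0.281 to 0.447) and 0 of all genes.

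Because the mark falls on the untreated BCR-negative and BCR-positive cells of 2 tumours and on no others, its coefficient is the excess of those cells over treated and BCR-independent cells in tumours 2646 and 2676 beyond the same excess in tumour 2567. An effect of whatever the mark stands for and a different behaviour of tumour 2567 cannot be told apart. With the mark as a term, the mean step between these 2 groups and treated and BCR-independent cells is estimated from tumour 2567 alone. Differences across that step given with the mark therefore rest on this tumour and are no correction for a batch. Hif1a lay between 6.88 and 7.21 on all 12 arrays, and among 15 tested HIF subunits and regulators outside the 36 genes 0 were called for the mark by limma, 0 at an unadjusted p under 0.05, with a median of -0.01. The HIF prolyl hydroxylases of the 36 are not among these 15, and of them Egln1 had a coefficient of 1.02 (SE 0.16, adjusted p = 0.0812) and Egln3 one of 0.17 (SE 1.08). Of 23 tested members of a further list of hypoxia-induced genes, 20 had a positive coefficient, against 57.2% of all genes, and 0 were called (12 at an unadjusted p under 0.05, against 12.7% of all genes). In 6 of the 23, against 1.96% of all genes, the marked arrays lay above the rest: Bnip3l, Ddit4, Gys1, Plin2, Kdm4b and Ccng2.

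**Figure D3:**
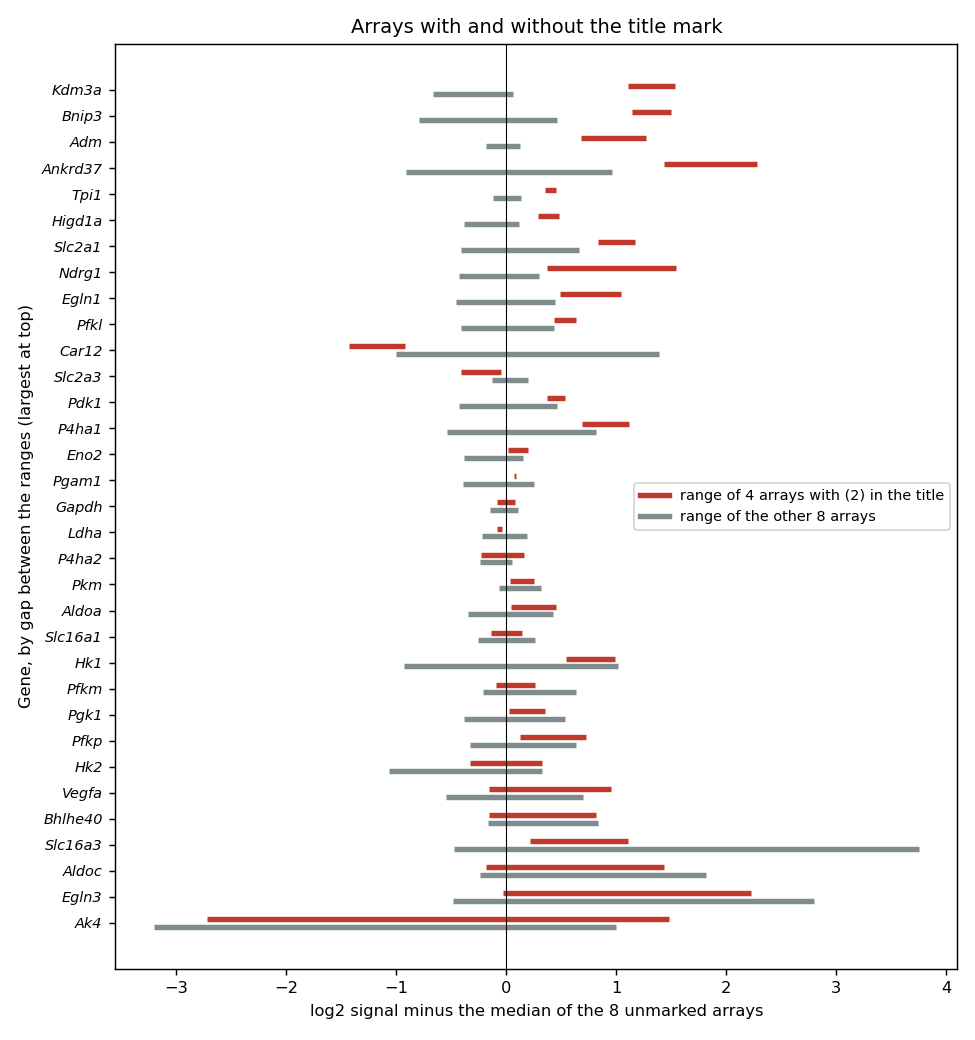
Range of log2 signal on the 4 arrays with (2) in the title (red) and on the other 8 arrays (grey) for the 33 tested genes, each less the median of the 8. Genes run from the widest gap between the ranges at the top to the widest overlap. In the first 9 genes the red range lies wholly above the grey one, and in Car12 it lies low.

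No listed gene changed detectably with loss of the receptor. Between BCR-negative and BCR-positive cells limma called 0 of 33 listed genes, 0 at an unadjusted p under 0.05, while 0.00772% of all genes were called and 3.19% had an unadjusted p under 0.05. The ranges of the groups overlapped in every listed gene, and in all but 4.51% of all genes. Slc16a1, the lactate and pyruvate transporter MCT1, came first by p, with 9.44, 9.48 and 9.37 in BCR-negative cells, against 9.39, 9.21 and 9.20 in BCR-positive cells (log2 difference 0.16, SE 0.11, adjusted p = 0.999). It was higher in 3 of 3 tumours, and the ranges overlapped. The 95% interval of this difference ran from -0.08 to 0.41.

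Vegfa had 6.87, 6.43 and 7.27 in BCR-negative cells, against 6.61, 7.21 and 7.54 in BCR-positive cells (log2 difference -0.26, SE 0.20), higher in tumour 2567 and lower in the other two. Hk1, a hexokinase, had 3.69, 5.29 and 5.43, against 4.07, 5.16 and 5.61 in BCR-positive cells (-0.15, SE 0.13). Its level split the tumours and not the groups, with 3.69 to 4.19 on the 4 arrays of tumour 2567 and 5.04 to 5.63 on the other 8. The platelet phosphofructokinase Pfkp had 7.83, 7.90 and 8.05, against 7.78, 8.33 and 8.50 in BCR-positive cells (-0.28, SE 0.28). Higd1a differed by -0.11 (SE 0.14), Slc2a3 by 0.09 (SE 0.11) and the enolase Eno2 by 0.12 (SE 0.13). Eno2 stayed below the array median on all 12 arrays. Aldoc, an aldolase, differed by 0.56 (SE 0.52) through 1 array, with 3.33, 4.90 and 3.41 in BCR-negative cells, against 3.23, 3.28 and 3.44 in BCR-positive cells. None of these 7 genes passed the test, and the adjusted p was 0.999 for each. Median log2 differences were 0.0014 over the 18 glycolysis genes, 0.060 over the 15 hypoxia genes and -0.00093 over all genes.

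The question for BCR-independent clones was what sets them apart from BCR-negative cells that were outcompeted. Limma called 0 of 33 listed genes, against 0.00772% of all genes, and 3 had an unadjusted p under 0.05, against 5.99% of all. Ranges of the groups did not overlap in 4 (Kdm3a, Pfkm, Slc2a3 and Gapdh), against 4.54% of all genes. Kdm3a had 6.78, 6.73 and 6.75 in BCR-independent cells, against 6.81, 7.86 and 8.22 in BCR-negative cells (log2 difference -0.88, SE 0.27, adjusted p = 0.781). These ranges did not overlap, by a gap of 0.03, yet tumour 2567 differed by -0.03 and the others by -1.13 and -1.46. Adm had 3.60, 3.81 and 3.73, against 3.58, 4.45 and 5.04 in BCR-negative cells (-0.64, SE 0.22, adjusted p = 0.799), with 0.01 in tumour 2567. Vegfa had 6.54, 6.04 and 6.46, against 6.87, 6.43 and 7.27 in BCR-negative cells (-0.51, SE 0.20, adjusted p = 0.814), and was lower in 3 of 3 tumours.

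Ankrd37 differed by -1.36 (SE 0.67, adjusted p = 0.814), made of 0.89 in tumour 2567, -2.34 in tumour 2646 and -2.64 in tumour 2676. The same split held for Slc2a1, with 0.30, -1.35 and -1.04, and for the liver phosphofructokinase Pfkl, with 0.11, -0.85 and -0.62. Pfkm, the muscle form of that enzyme, had 5.06, 5.06 and 4.96 in BCR-independent cells, against 5.33, 5.44 and 5.08 in BCR-negative cells (-0.26, SE 0.13, adjusted p = 0.814), without overlap and lower in 3 of 3 tumours. Car12, a membrane carbonic anhydrase, was alone among the 8 genes with the smallest p in being higher, by 0.39 (SE 0.20, adjusted p = 0.816). With the mark as a term, Slc2a1, Pfkl and Ankrd37 changed sign, to 0.41, 0.27 and 0.63, and Kdm3a (-0.14), Adm (-0.10), Vegfa (-0.13) and Pfkm (-0.11) came closer to 0.

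By list, the median log2 difference between BCR-independent and BCR-negative cells was -0.28 over the hypoxia genes, with 12 of 15 lower, and -0.042 over the glycolysis genes, with 11 of 18 lower, against 0.017 over all genes, with 5795 of 12961 lower. Within tumours the hypoxia median was 0.26 in 2567, where neither array is marked, and -0.64 in 2646 and -0.81 in 2676, where the BCR-negative array is marked. Glycolysis medians were 0.17, -0.32 and -0.087. In tumour 2567, 27 of 33 listed genes were higher in BCR-independent cells, whereas 28 were lower in tumour 2646 and 24 in tumour 2676. Of all 12961 genes 6875 were higher in tumour 2567, 5652 lower in tumour 2646 and 6337 lower in tumour 2676. With the mark as a term the medians were 0.37 over the hypoxia genes and 0.27 over the glycolysis genes.

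**Figure D4:**
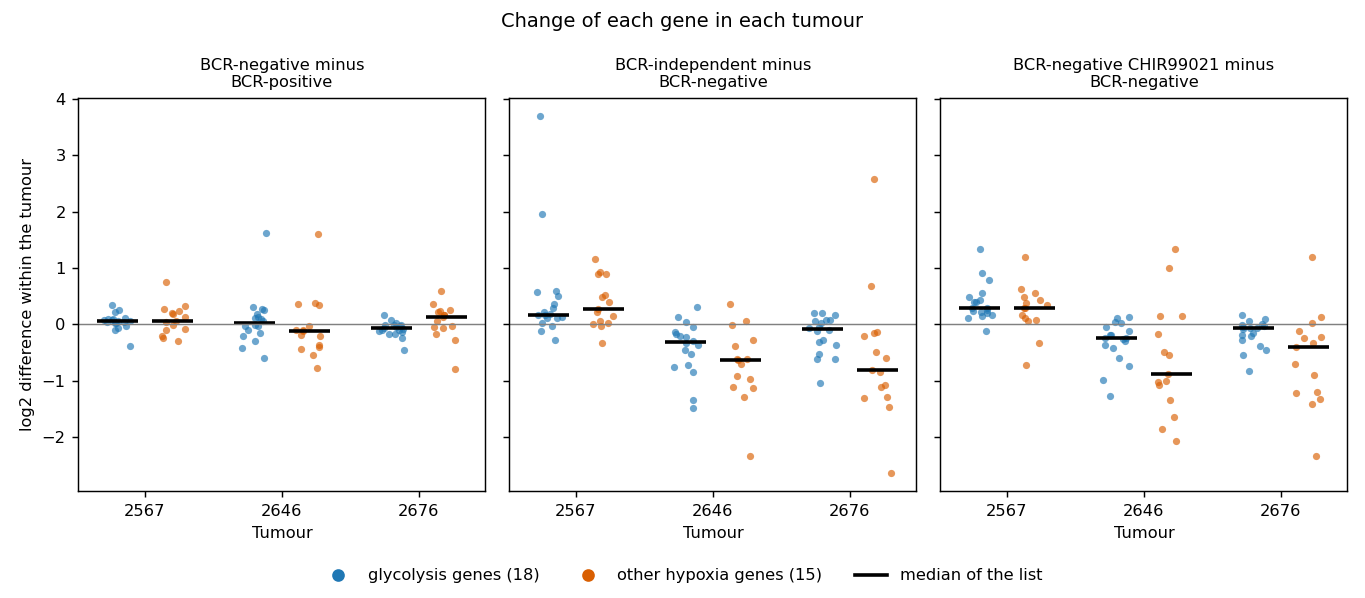
Log2 difference of each tested gene within each tumour, for BCR-negative minus BCR-positive, BCR-independent minus BCR-negative and CHIR99021-treated minus untreated BCR-negative cells, with the median of each list as a bar. In the comparisons with treated or BCR-independent cells, the hypoxia medians lie above 0 in tumour 2567 and below it in tumours 2646 and 2676.

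CHIR99021-treated cells were set against untreated BCR-negative ones to see what GSK3 inhibition did in the absence of the receptor. Car12 rose, and it was the only listed gene that limma called, 1 of 33, against 1.91% of all genes (1.06% higher and 0.849% lower). At an unadjusted p under 0.05 stood 4 listed genes, against 16.6% of all, and in 2 (Kdm3a and Slc16a1) the ranges did not overlap, against 10.6% of all. Its levels were 7.14, 5.73 and 5.58 in CHIR99021-treated cells (mean 6.15 ± 0.86), against 6.51, 4.40 and 4.38 in BCR-negative cells (mean 5.10 ± 1.23, SD, n = 3 each). Each tumour was higher under treatment, by 0.63, 1.33 and 1.20, although the ranges overlapped because tumour 2567 was high throughout. The log2 difference was 1.05 (SE 0.20, 95% interval 0.608 to 1.496, adjusted p = 0.0381), or 2.07-fold. The call was lost without any 1 tumour (adjusted p = 0.0654 without 2567, 0.342 without 2646 and 0.254 without 2676), without the tumour block (0.842), with those 2 groups alone (0.0506) and with the mark as a term (1.03, adjusted p = 0.182), while its size stayed between 0.91 and 1.26.

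Kdm3a came next, with 6.09, 6.22 and 6.79 in CHIR99021-treated cells, against 6.81, 7.86 and 8.22 in BCR-negative cells, ranges that did not overlap. Its log2 difference of -1.26 (SE 0.27, 95% interval -1.87 to -0.66, adjusted p = 0.0531) ran the same way in 3 of 3 tumours, by -0.72, -1.64 and -1.43. It was called without tumour 2567 (-1.53, adjusted p = 0.0392), with the stricter filter (adjusted p = 0.0438) and after quantile normalization (adjusted p = 0.0424), and with the mark as a term it was -0.53 (adjusted p = 0.260). Ndrg1, a stress-induced gene of the N-myc downstream-regulated family, had 4.34, 4.44 and 4.91, against 4.67, 5.52 and 6.13 in BCR-negative cells (-0.87, SE 0.30, adjusted p = 0.175). It too was lower in 3 of 3 tumours, by -0.33, -1.07 and -1.22, and with the mark as a term it was -0.19 (adjusted p = 0.827).

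**Figure D5:**
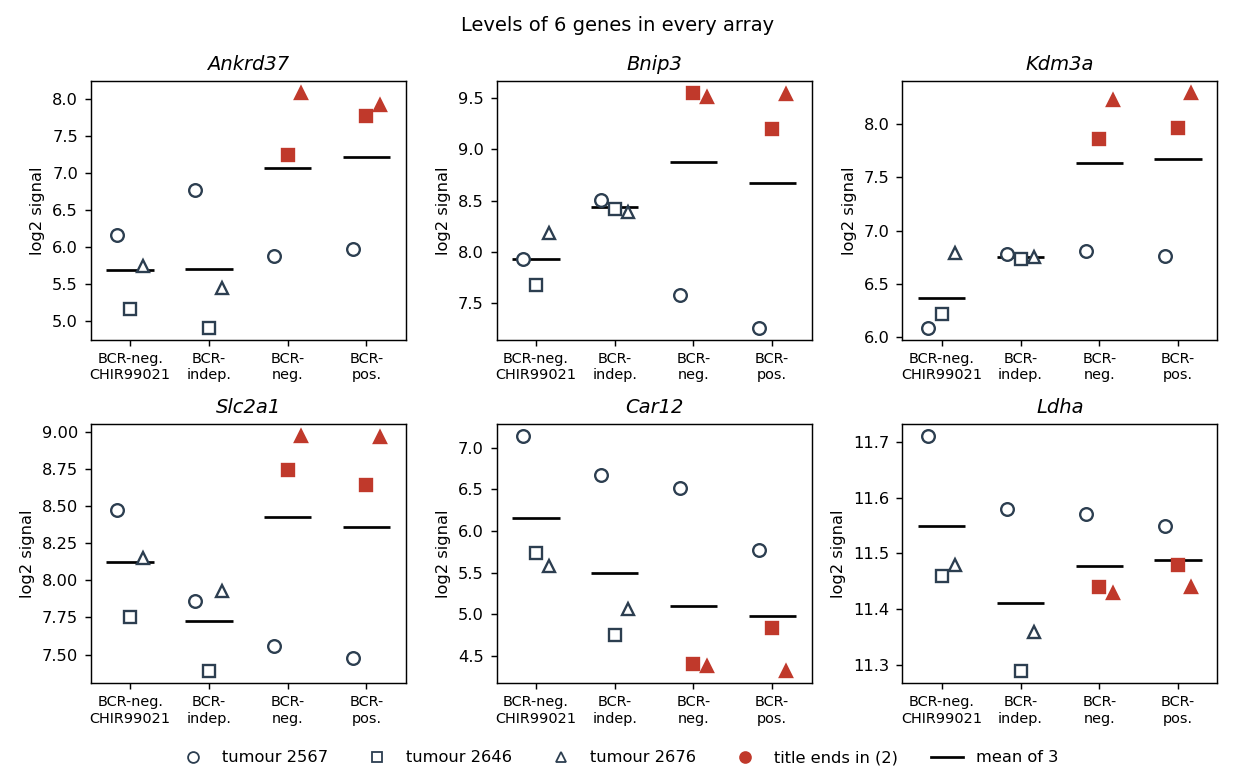
Log2 signal of 6 genes on every array, by group, with the mean of each group as a bar, tumours as symbols and arrays with (2) in the title filled red. Ankrd37, Bnip3, Kdm3a and Slc2a1 are highest on the 4 marked arrays, Car12 is highest in tumour 2567 and in treated cells within each tumour, and Ldha, the lactate dehydrogenase subunit of anaerobic glycolysis, spans only 11.29 to 11.71.

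Other leading genes split by tumour. Ankrd37 differed by -1.38 (SE 0.67, adjusted p = 0.350), made of 0.28, -2.08 and -2.35, and Bnip3 by -0.95 (SE 0.47, adjusted p = 0.353), made of 0.35, -1.87 and -1.33. Without tumour 2567 both were called, at -2.21 (adjusted p = 0.0373) and -1.60 (adjusted p = 0.0392). Adm differed by -0.56 (SE 0.22, adjusted p = 0.240), with 3.65, 3.90 and 3.84 in treated cells, against 3.58, 4.45 and 5.04 in BCR-negative cells. Pdk1, pyruvate dehydrogenase kinase, had 8.10, 7.61 and 8.23, against 7.98, 8.50 and 8.57 in BCR-negative cells (-0.37, SE 0.25, adjusted p = 0.527). With the mark as a term Ankrd37, Bnip3 and Pdk1 changed sign, to 0.61, 0.44 and 0.23, and Adm was -0.01. Pfkm had 5.81, 5.55 and 5.09 in treated cells, against 5.33, 5.44 and 5.08 in BCR-negative cells (0.20, SE 0.13, adjusted p = 0.488, and 0.35 with the mark).

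The glycolysis genes gave no call under treatment and the hypoxia genes gave 1, Car12, against 1.91% of all genes. At an unadjusted p under 0.05 stood 0 of 18 glycolysis genes and 4 of 15 hypoxia genes, against 16.6% of all genes. The glycolysis median log2 difference was -0.014, with 9 of 18 higher, against -0.36 over the hypoxia genes, with 10 of 15 lower, and 0.026 over all genes, with 7355 of 12961 higher and 5606 lower. In tumour 2567 the medians were 0.29 for glycolysis and 0.29 for hypoxia genes, and 30 of the 33 were higher in treated cells, as were 7873 of all 12961. In tumours 2646 and 2676 the glycolysis medians were -0.25 and -0.073 and the hypoxia medians -0.89 and -0.40. The B cell markers moved beside these genes, with 5 of 6 lower in treated cells and a median of -0.44. Ebf1, a factor of B cell identity, led them at -1.21 (adjusted p = 0.0677). Of 10 tested markers of T, myeloid, stromal and endothelial cells 0 were called by limma, against 1.91% of all genes. Among them 2 had an unadjusted p under 0.05, against 16.6% of all genes. The part of these shifts in the result was not tested.

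Further genes of the pathway, on 5 companion lists, gave 3 calls between treated and untreated BCR-negative cells, all lower, where 0.849% of all genes were called lower and 1.91% in either direction. Ccng2, a cyclin-like gene of growth arrest on the further list of hypoxia-induced genes, had 3.83, 3.80 and 3.80 in treated cells, against 4.80, 6.28 and 6.37 in BCR-negative cells (log2 difference -2.01, SE 0.32, adjusted p = 0.0278). It was 1 of 23 tested there, with 18 lower, against 5606 of all 12961, and a median of -0.16. Pgls, the lactonase of the pentose phosphate pathway, had 6.11, 6.28 and 6.04, against 6.72, 7.05 and 6.97 in BCR-negative cells (-0.77, SE 0.14, adjusted p = 0.0338), 1 of 8 tested. Pcx, pyruvate carboxylase, had 3.95, 4.20 and 4.24, against 4.91, 4.93 and 5.18 in BCR-negative cells (-0.88, SE 0.15, adjusted p = 0.0322), 1 of 11 tested genes of pyruvate entry into mitochondria. The ranges of treated and untreated BCR-negative cells did not overlap in these 3 genes. With the mark as a term they were -1.22, -0.61 and -0.69, and their calls were lost (adjusted p = 0.132, 0.203 and 0.185). Without the tumour block they were lost as well (adjusted p = 0.203, 0.275 and 0.0818). The call of Ccng2 was also lost without tumour 2646 (adjusted p = 0.388) or 2676 (0.143), and those of Pgls and Pcx without any 1 tumour (adjusted p = 0.106 to 0.342 and 0.0579 to 0.342). Among 15 HIF subunits and regulators and 10 other regulators of glycolysis limma called 0, and 0 and 4 had an unadjusted p under 0.05, against 16.6% of all genes. The members with the smallest p were Elob (0.20) and Ep300 (-0.27) in the first list and Pgm2 (0.33) and Txnip (-0.96) in the second.

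Between BCR-independent and BCR-negative cells, and between BCR-negative and BCR-positive cells, limma called 0 members of the 5 companion lists, against 0.00772% of all genes in each. In the comparison of BCR-independent with BCR-negative cells the smallest p of the further hypoxia-induced genes belonged to Ddit4 (-0.85, SE 0.29, adjusted p = 0.799), an inhibitor of mTORC1 signalling, and Ccng2 (-0.87, SE 0.32, adjusted p = 0.808). Ddit4 was lower in each tumour, tumour 2567 included. Next stood Eloc (-0.29) and Ep300 (-0.22) of the HIF regulators, Pfkfb3 (-0.18) and Hkdc1 (0.09) of the glycolytic regulators, Pdp2 (0.24) and Pdk2 (0.39) of pyruvate entry, and Pgls (-0.29) and Rpe (0.16) of the pentose phosphate pathway. Between BCR-negative and BCR-positive cells they were Hilpda (0.27) and Rcor2 (-0.61), Arnt2 (0.18) and Siah1a (0.18), Pfkfb3 (-0.32) and Txnip (0.48), Me2 (-0.28) and Dlat (-0.24), and Shpk (-0.20) and Rpia (-0.14). None of these passed the test.

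Set against BCR-positive cells, treated BCR-negative cells had 1 called gene of 33, where 0.802% of all genes were called, and it was again Car12 (6 had an unadjusted p under 0.05, against 15.6% of all, and 0 had ranges apart, against 11.5% of all). Car12 had 5.77, 4.84 and 4.32 in BCR-positive cells (log2 difference 1.17, SE 0.20, adjusted p = 0.0376). That call was lost without any 1 tumour (adjusted p = 0.105 to 0.206) and with the mark as a term (0.159). Kdm3a followed at -1.30 (SE 0.27, adjusted p = 0.0639), then Adm at -0.66 and Ndrg1 at -0.81 (adjusted p = 0.191 and 0.224). Kdm3a was called without tumour 2567 (-1.62, adjusted p = 0.0472), and with the mark Kdm3a was -0.56, Adm -0.11 and Ndrg1 -0.13. Of the companion lists Ccng2 (1 of 23) and Pgls (1 of 8) were called again, both lower. Ccng2 had 4.91, 5.82 and 6.37 in BCR-positive cells (log2 difference -1.89, SE 0.32, adjusted p = 0.0376) and Pgls 6.69, 7.10 and 6.95 (-0.78, SE 0.14, adjusted p = 0.0429). With the mark as a term these calls were lost (-1.10 and -0.61, adjusted p = 0.157 and 0.215). They were lost too with no tumour block (0.311 and 0.324), without tumour 2646 (0.330 and 0.319) and without tumour 2676 (0.165 and 0.135), and without tumour 2567 for Pgls (0.132). This comparison and that with BCR-negative cells share their treated arrays.

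BCR-independent cells set against BCR-positive cells had 0 called genes by limma, against 0.0849% of all genes, and 6 of 33 with an unadjusted p under 0.05, against 9.61%. Ranges were apart in 4, against 7.35% of all genes. Vegfa had 6.54, 6.04 and 6.46 in BCR-independent cells, against 6.61, 7.21 and 7.54 in BCR-positive cells, without overlap (-0.77, SE 0.20, adjusted p = 0.304). Kdm3a differed by -0.91, Adm by -0.74 and Car12 by 0.52 (adjusted p = 0.339, 0.339 and 0.461). Without tumour 2567 Ankrd37 was called (-2.68, adjusted p = 0.0144), against -1.52 (adjusted p = 0.519) with all 3 tumours. This gene was chosen after its values were seen, and with the mark as a term its difference was 0.47. With the mark Vegfa was -0.39, Kdm3a -0.18 and Adm -0.20.

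Treated BCR-negative cells and BCR-independent cells were compared without the mark on either side, since none of their arrays carry it. Limma called 0 of 33, against 0.162% of all genes, and 3 had an unadjusted p under 0.05, against 12.3% of all. Ranges were apart in 4, against 8.19% of all genes. Pfkm had 5.81, 5.55 and 5.09 in treated cells, against 5.06, 5.06 and 4.96 in BCR-independent cells (0.46, SE 0.13, adjusted p = 0.203), without overlap. Vegfa had 7.03, 6.57 and 7.29, against 6.54, 6.04 and 6.46 in BCR-independent cells (0.62, SE 0.20, adjusted p = 0.278), again without overlap and higher in 3 of 3 tumours. Car12 differed by 0.66 (SE 0.20, adjusted p = 0.230). Bhlhe40, a transcriptional repressor, differed by 0.49 (SE 0.23, adjusted p = 0.442), with 3.38, 4.18 and 3.76, against 3.37, 3.17 and 3.32 in BCR-independent cells. These BCR-independent values lay below the medians of their arrays (3.38, 3.32 and 3.44), and Bhlhe40 was above the array median on only 6 of 12 arrays. The medians were -0.012 over the hypoxia genes and 0.033 over the glycolysis genes.

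Several members varied by tumour or through 1 array. Slc16a3, the lactate exporter MCT4, reached 8.56 in BCR-independent cells of tumour 2567 and lay between 4.33 and 6.19 on the other 11 arrays. Egln3, an oxygen-sensing prolyl hydroxylase, reached 6.38 in BCR-independent cells of tumour 2676, against 3.80 in BCR-negative cells of that tumour, and 5.39 and 5.80 in BCR-negative and BCR-positive cells of tumour 2646. Aldoc stood at 5.29 in BCR-independent cells of tumour 2567. Ak4, a mitochondrial adenylate kinase, lay between 2.66 and 3.94 in tumour 2676 and between 5.44 and 7.34 in the others. Gapdh, Pkm and Ldha, enzymes of lower glycolysis and lactate production, spanned 12.07 to 12.31, 10.28 to 10.66 and 11.29 to 11.71 over all arrays. P4ha2, like Eno2 and Car9, stayed below the array median on all 12 arrays.

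Some genes had several probe sets annotated to them alone. Bnip3 had 2, with log2 differences between treated and untreated BCR-negative cells of -0.95 and -1.10, and Gapdh had 17, with 0.0958 to 0.148. Pgk1 had 3, with -0.124, -0.124 and -0.113. The 2 probe sets of Higd1a differed in sign, at -0.0143 and 0.0407, as did the 2 of Pkm, at 0.0075 and -0.0083. Those of Tpi1 (-0.166 and -0.144), Ak4 (0.0995 and 0.0984) and Pgam1 (0.101, 0.0727 and 0.0727) kept theirs. Pgk1, Pgam1 and Gapdh each had a pair of probe sets with the same mean and the same differences in every comparison. Such a pair does not count as separate readings. Whether some of these probe sets read other copies of the gene was not tested.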

How the data were processed

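Gene expression was measured on 12 Affymetrix Mouse Gene 1.1 ST arrays, each group having 3. Per the submitters' processing notes the authors used RMA and Affymetrix Power Tools to make the deposited log2 signals. RMA corrects background, brings the arrays to 1 distribution and summarises probes, so differences between dim probe sets are compressed. The sources used here give no versions. All 12 columns of the table had a sample, and 0 were left out.

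A single gene symbol was annotated to 21218 of 35556 probe sets. Gene names were updated through RefSeq (GRCm38.p6). The filter asked for a signal above the array's 40th percentile on 3 arrays or more, which left 12961 genes. Group and tumour were fitted with limma 3.58.1 in R 4.3.3 (6 residual and 3.41 prior degrees of freedom), and calls were made at a Benjamini-Hochberg adjusted p under 0.05 over all genes, in 6 comparisons. Each tumour occurs once in every group, so the tumour was a block. Deviations of arrays from their group means correlated at 0.284 to 0.792 within tumours and at -0.716 to 0.165 between them. Each group has 1 array a tumour, so the p-values reflect the spread between single arrays, whose number limits precision.

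Members and lists were chosen with earlier results of these data known. Genes named are those called and, by unadjusted p, the first 8 in each main comparison and the first 4 in the others. In companion lists they are those called, or else the first 2 by p. The fit was tested on simulated data for treated against untreated BCR-negative cells over 12961 genes. There it recovered 186 of 200 genes changed by 1 log2 unit, with 13 false calls, and 200 of 200 changed by 2, with 7. These rates do not carry over to listed genes that differ widely between tumours. In the arrays Ankrd37 (-1.38), Kdm3a (-1.26) and Bnip3 (-0.95) were not called in this comparison. A missing call is therefore not evidence of no change. Alternatives were no tumour block, robust eBayes with an intensity trend, no filter or a stricter one (60th percentile), averaging a gene's probe sets, quantile normalization, fits of 2 groups alone, each tumour left out and the title mark as a term, whose own coefficient was tested after the data were seen. Core motifs were counted with Python 3.11.15.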

Additional observations from a re-analysis of the deposited data

How the results depend on the processing

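Directions of the listed genes named in the text were kept under every alternative except the title mark as a term and, for 1 gene, the loss of a tumour. With the mark, log2 differences between BCR-independent and BCR-negative cells turned to 0.41 for Slc2a1, 0.27 for Pfkl and 0.63 for Ankrd37, and those between CHIR99021-treated and untreated BCR-negative cells to 0.44 for Bnip3, 0.23 for Pdk1 and 0.61 for Ankrd37, and that of Ankrd37 between BCR-independent and BCR-positive cells to 0.47. Slc2a3 between BCR-negative and BCR-positive cells ranged from -0.0070 (without tumour 2646) to 0.19 (without tumour 2567). The mark also moved list medians, glycolysis first and hypoxia second, to 0.27 and 0.37 for BCR-independent against BCR-negative cells, to 0.34 and 0.35 for treated against BCR-negative cells, to 0.34 and 0.33 for treated against BCR-positive cells and, for glycolysis alone, to 0.25 for BCR-independent against BCR-positive cells. Quantile normalization moved the glycolysis median of treated against BCR-independent cells to 0.071. The moves with the mark follow from the design, since that fit takes the step between the marked groups and the other groups from tumour 2567 alone. They are no correction for a batch. What the mark stands for and the cause of the move after quantile normalization were not tested.

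Listed genes called between treated and untreated BCR-negative cells (1 as reported) numbered 0 with no replicate block for the tumour pairing, 0 with only those 2 groups, 0 with the mark, 2 after quantile normalization, 2 with the stricter filter, and 0 to 3 with 1 tumour left out. Of all genes, 248 were called as reported, 12 without the block, 109 with only those 2 groups and 32 with the mark. Quantile normalization gave 222 and the stricter filter 246 of 8764. Leaving out tumours 2567, 2646 and 2676 in turn gave 17, 1 and 10. For treated against BCR-positive cells (1 as reported) the listed genes called numbered 0 without the block, 2 after quantile normalization, 0 with only those 2 groups, 0 with the mark and 0 to 2 with 1 tumour left out. Of all genes 104 were called there as reported, and 7, 151, 0 and 8 under the first of these settings in the same order. Leaving out tumours 2567, 2646 and 2676 in turn gave 19, 4 and 15. For BCR-independent against BCR-positive cells the count was 0 to 1 with 1 tumour left out, where 4, 4 and 1 of all genes were called. Medians of treated against BCR-independent cells then ranged from 0.068 to 0.12 for glycolysis and from -0.083 to 0.059 for hypoxia genes. For BCR-independent against BCR-negative cells they ranged from -0.226 to 0.062 for glycolysis and from -0.614 to -0.056 for hypoxia genes. For treated against BCR-negative cells the ranges were -0.176 to 0.097 and -0.613 to -0.140. The hypoxia median of treated against BCR-positive cells ranged from -0.554 to 0.058. For the mark itself (4 as reported), 7 listed genes were called without the block, 3 of them among the 4, and 0 without either tumour 2646 or tumour 2676. Of all genes 7 were called for the mark as reported, 123 without the block and 0 without either of these tumours. Without tumour 2567 the mark coincides with the groups and could not be fitted.

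Limits are the 3 arrays a group and the unexplained title mark. The mark falls on BCR-negative and BCR-positive untreated cells of 2 tumours, and its effect cannot be told apart from a different behaviour of tumour 2567. Another limit is the absence of detection calls. Levels below the array medians (Eno2, P4ha2, Car9, and Bhlhe40 on some arrays) therefore have no measured background beside them.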
